A study of Mus musculus with 18 samples.

Results

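The Serpin genes encode one family of protease inhibitors and related proteins, and their messenger RNA was measured in 3 macrophage populations of the inflamed mouse lung, in WT mice and in mice with Ezr deleted by a Cx3cr1-driven Cre. The members were defined by annotation, although earlier results of these data were known when the family was chosen. In the count table, 25 of the 21254 genes were protein coding and had a symbol starting with Serpin. Of these, 22 passed the filter on low counts that left 15811 genes for testing. Serpinb7, Serpinc1 and Serpine3 did not pass and never exceeded 13 reads in a library. All mice inhaled nebulized LPS of Pseudomonas aeruginosa (12.5 mg in 5 ml PBS over 15 min) and were killed 24 h later, so no unexposed group was compared here. Every mouse was an adult on the C57BL/6 background, of either sex, and carried Cre recombinase under the Cx3cr1 promoter. Wild-type (WT) mice had unaltered Ezr, and Ezr-KOm mice had both Ezr alleles floxed. According to the study, that promoter also has some activity in classical dendritic cells, eosinophils and NK cells. From the perfused, digested lungs, cells positive for CD45 and CD11b were sorted into monocyte-derived macrophages (moMs, MHC-II-Ly6C+), transitional interstitial macrophages (tnsIMs, labelled trIM, MHC-II+Ly6C+) and mature interstitial macrophages (matIMs, MHC-II+Ly6C-). In the study's gating, CD11b+ cells were taken from the CD11c- fraction, and granulocytes were separated by CD24 and MHC-II. Each of the 6 groups had 3 libraries, 18 in all.

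Read totals ran from 16512783 to 48460995 per library, and the 25 Serpin genes together summed to 266 to 520 CPM in each, where CPM is the read count relative to the scaled library total. Ezr checked the labels. Its mean was 531 ± 53.6 CPM in WT and 232 ± 63.7 CPM in Ezr-KOm moMs, 586 ± 83.8 and 191 ± 57.4 CPM in tnsIMs, and 662 ± 70.0 and 135 ± 37.4 CPM in matIMs (SD, n = 3), with no overlap between genotypes in any population. Sort markers followed the gates: H2-Ab1, an MHC-II gene, was 984 to 1775 CPM in moMs and 7930 to 18400 CPM in the MHC-II+ populations, and Ly6c2 was at most 76.6 CPM in matIMs. The matIM libraries also held markers of mature dendritic cells. Ccr7 reached 1481 to 2418 CPM in matIMs, against 94.5 to 181 CPM in tnsIMs and 9.76 to 28.3 CPM in moMs. In these bulk samples, fewer cells of a type and less RNA per cell cannot be told apart.

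Most serpins inhibit serine or cysteine proteases by a suicide mechanism. The protease cleaves an exposed reactive centre loop, the loop then inserts into a sheet of the serpin body, and enzyme and inhibitor stay covalently bound. Clade A and the extracellular clades C to G act mainly on secreted enzymes of coagulation, fibrinolysis, complement and neutrophil granules, whereas clade B serpins lack a classical signal peptide and mostly protect cells from proteases in the cytosol. A few members, among them the collagen chaperone encoded by Serpinh1 and the pigment epithelium-derived factor encoded by Serpinf1, do not inhibit proteases.

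The coding sequences of the loop are compared here for close members. Each stretch below is 31 codons of the coding strand, read from the Gencode M39 transcripts (GRCm39), with 8 codons of the hinge, the start of the loop that inserts into the sheet, in capitals. The first group shares a cluster on chromosome 12, and the others are clade B members and Serping1, each described below for its level by population.
Serpina3f: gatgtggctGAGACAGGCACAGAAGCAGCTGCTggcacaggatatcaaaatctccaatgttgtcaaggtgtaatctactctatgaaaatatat
Serpina3g: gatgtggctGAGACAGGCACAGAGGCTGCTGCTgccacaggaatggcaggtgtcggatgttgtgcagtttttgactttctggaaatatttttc
Serpina3m: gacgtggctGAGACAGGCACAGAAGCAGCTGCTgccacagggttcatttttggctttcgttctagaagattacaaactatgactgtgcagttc
Serpina3n: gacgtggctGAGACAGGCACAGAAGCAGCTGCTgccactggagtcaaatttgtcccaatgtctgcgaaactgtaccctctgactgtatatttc
Serpinb9: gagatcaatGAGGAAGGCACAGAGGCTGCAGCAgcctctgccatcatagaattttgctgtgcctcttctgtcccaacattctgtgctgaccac
Serpinb9b: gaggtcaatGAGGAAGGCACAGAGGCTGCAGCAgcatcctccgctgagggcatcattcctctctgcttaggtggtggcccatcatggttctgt
Serpinb6b: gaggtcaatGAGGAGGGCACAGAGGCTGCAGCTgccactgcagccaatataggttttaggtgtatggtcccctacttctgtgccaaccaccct
Serpinb8: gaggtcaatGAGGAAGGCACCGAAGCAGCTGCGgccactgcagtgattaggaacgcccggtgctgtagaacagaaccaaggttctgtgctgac
Serpinb2: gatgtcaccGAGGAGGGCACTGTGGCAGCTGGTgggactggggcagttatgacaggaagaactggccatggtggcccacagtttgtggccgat
Serping1: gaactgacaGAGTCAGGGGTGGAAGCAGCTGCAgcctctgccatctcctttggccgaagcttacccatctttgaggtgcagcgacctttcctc

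These stretches lie at chr12:104186489-104186581 for Serpina3f, chr12:104207316-104207408 for Serpina3g, chr12:104360013-104360105 for Serpina3m and chr12:104379692-104379784 for Serpina3n, all on the plus strand. Serpinb9 is read from chr13:33199667-33199759, Serpinb9b from chr13:33223770-33223862 and Serpinb6b from chr13:33162175-33162267, on the plus strand. Serpinb8 is at chr1:107534888-107534980 and Serpinb2 at chr1:107452504-107452596, on the plus strand, and Serping1 at chr2:84595987-84596079 on the minus strand. The 24 hinge bases were identical in Serpina3f, Serpina3m and Serpina3n. The 60 bases after them were compared position by position, without gaps. They matched at 20 (Serpina3f with Serpina3m) to 35 positions (Serpina3m with Serpina3n). Serpinb9 and Serpinb9b likewise shared all 24 hinge bases and 15 of the next 60. Loops of unequal length lower such a match, so it does not measure similarity. The hinge began 51 codons from the coding end in Serpinb9 and 54 in Serpinb9b. Read sharing between paralogs was small by sequence: of all stretches of 100 bases in the main transcript, 3.52% in Serpina3f, 4.0% in Serpina3g, 2.79% in Serpina3m and 0.186% in Serpina3n occurred in another Serpin gene, and 2.24% in Serpina3i. The other 20 members shared none. Serpina3m shared its stretches with Serpina3k, which was not analysed here. Only reads lying wholly within shared sequence could not be assigned to 1 gene. The study's reads were longer than these stretches, and the number affected was not tested. Levels of Serpina3f, Serpina3g, Serpina3m and Serpina3i are therefore slightly uncertain.

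Levels between genes were compared per length, as mean CPM per kb of exon over the 18 libraries. Serpina3g (16.3), Serpinb2 (15.9), Serpinb9 (15.9) and Serpina3f (10.8 CPM per kb) led, followed by Serping1 (8.12), Serpinb1a (7.48), Serpinb8 (5.83), Serpina3n (5.15), Serpinb6b (4.49), Serpinh1 (3.74) and Serpinb6a (1.22 CPM per kb). The first places are not settled: with the length of the longest transcript instead, Serpinb2 came first at 21.3 CPM per kb, with Serpinb9 next at 18.8 and Serpina3g at 16.3. The order also changed with the population. In WT moMs, Serpinb2 was highest, at 18.7 ± 6.01 CPM per kb. In WT tnsIMs, Serpina3g (18.1 ± 6.79), Serping1 (16.3 ± 7.04) and Serpina3f (15.6 ± 10.3 CPM per kb) lay within their SDs of each other. In WT matIMs, Serpinb9 led at 36.2 ± 5.38 CPM per kb, above Serpina3g at 22.1 ± 7.05 CPM per kb (SD, n = 3). A further 13 members were each below 1 CPM per kb.

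**Figure D1:**
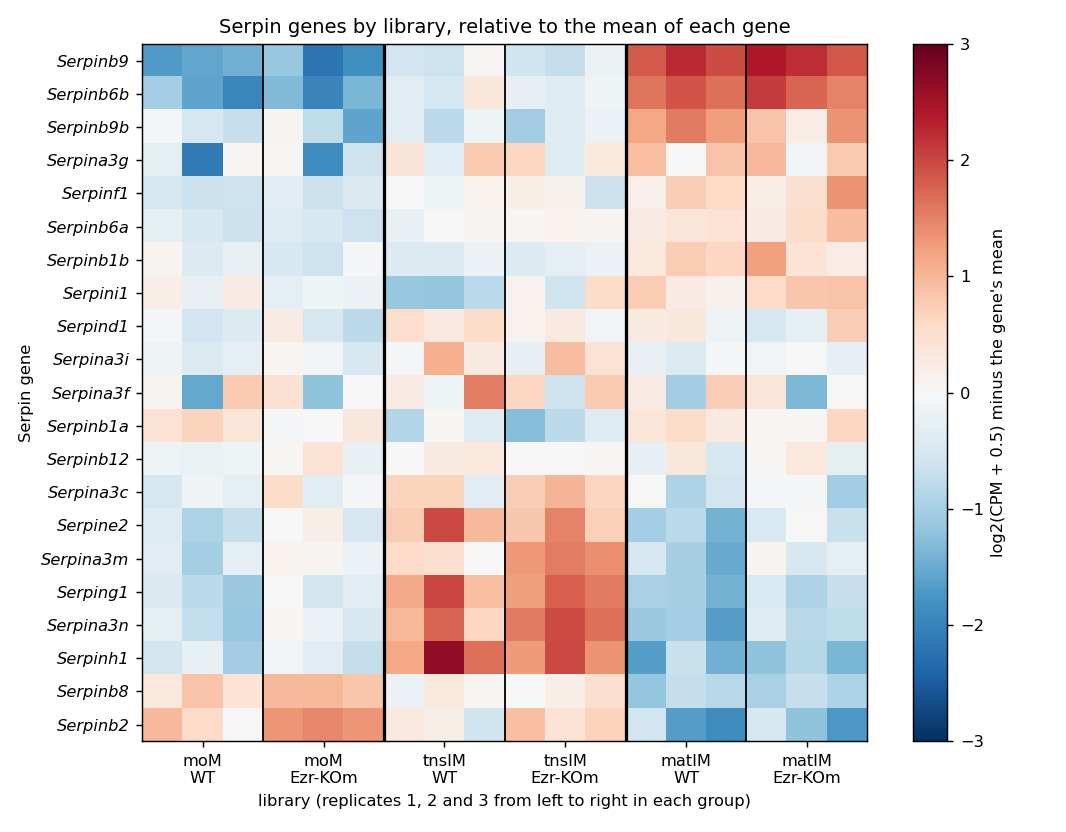
The heat map plots log2(CPM + 0.5) minus each gene's mean for 21 of the tested Serpin genes (rows) in the 18 libraries (columns, replicates 1 to 3 in each group), with genes ordered from highest in matIMs to highest in moMs. Serpinb9 and Serpinb6b are darkest red in the 6 matIM libraries, Serping1, Serpina3n and Serpinh1 are red in the 6 tnsIM libraries, and Serpinb2 is blue in the matIM libraries.

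The populations differed in more Serpin genes than the genotypes did. In WT cells, 6 of the 22 members were higher and 2 lower in tnsIMs than in moMs at an adjusted p under 0.05 (edgeR's quasi-likelihood test, Benjamini-Hochberg adjustment over all tested genes), against 13% higher and 8.61% lower of all genes. From WT moMs to matIMs 5 rose and 2 fell (all genes 13.4% and 11.4%). Between WT tnsIMs and matIMs 6 were higher and 7 lower in matIMs (all genes 8.32% and 10.2%). In Ezr-KOm cells, tnsIMs had 8 members higher and 2 lower than moMs (all genes 9.23% and 5.04%), matIMs had 7 higher and 2 lower than moMs (12.5% and 10.7%), and matIMs had 6 higher and 7 lower than tnsIMs (8.37% and 9.85%). The median log2 fold change of the tested members from moMs to tnsIMs was 0.85 in WT cells, beside 0.01 over all genes, and from tnsIMs to matIMs it was −0.45, beside 0.04. The 3 comparisons of a genotype share their libraries.

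Of the 6 clade B genes of chromosome 13, which encode intracellular inhibitors, Serpinb9, Serpinb6b, Serpinb6a, Serpinb9b and Serpinb1b had their highest mean in matIMs in both genotypes, and Serpinb1a did not in WT cells. Serpinb9, which inhibits granzyme B and protects cells that make or meet it, was 12.9, 14.1 and 15.5 CPM in the 3 WT moM libraries. It was 28.7, 27.5 and 44.2 CPM in WT tnsIMs and 155, 205 and 167 CPM in WT matIMs. In Ezr-KOm libraries it was 19.1, 8.95 and 11.6 CPM in moMs, 28.1, 25.7 and 37.7 CPM in tnsIMs and 227, 202 and 157 CPM in matIMs. The 3 populations did not overlap in either genotype. Serpinb9 rose 12.4-fold from WT moMs to matIMs (log2 fold change 3.63 ± 0.27 SE, adjusted p = 1.25e-08) and 14.8-fold in Ezr-KOm cells (3.88 ± 0.27, adjusted p = 6.31e-09). Already from moMs to tnsIMs it rose 2.36-fold in WT cells (adjusted p = 0.00141).

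Serpinb6b, a close relative whose product is also cytosolic, followed the same order. In WT cells it was 4.38, 2.82 and 2.05 CPM in moMs, 7.34, 6.34 and 12.03 CPM in tnsIMs and 29.5, 35.8 and 30.6 CPM in matIMs. In Ezr-KOm mice it was 3.44, 2.01 and 3.31 CPM, then 7.90, 7.14 and 8.56 CPM, then 42.0, 32.6 and 27.3 CPM. Again no population overlapped another, and the rise from moMs to matIMs was 10.49-fold in WT (log2 3.39 ± 0.29, adjusted p = 9.57e-08) and 11.7-fold in Ezr-KOm cells (log2 3.54 ± 0.30, adjusted p = 5.3e-08). Its paralog Serpinb6a, a general cytosolic inhibitor, rose less. Serpinb6a was 7.17, 6.17 and 5.47 CPM in WT moMs, 7.55, 8.94 and 9.44 CPM in WT tnsIMs and 10.7, 11.6 and 12.2 CPM in WT matIMs. It was 6.66, 6.17 and 5.55 CPM in Ezr-KOm moMs, 9.27, 9.64 and 9.45 CPM in tnsIMs and 10.6, 13.3 and 17.4 CPM in matIMs. From moMs to matIMs it rose 1.84-fold in WT (log2 0.88 ± 0.19, adjusted p = 0.00188) and 2.25-fold in Ezr-KOm cells (log2 1.17 ± 0.19, adjusted p = 0.000141). Its smaller steps in Ezr-KOm cells, moMs to tnsIMs (adjusted p = 0.031) and tnsIMs to matIMs (adjusted p = 0.0487), were lost under several alternatives. The first was lost with each genotype fitted alone (adjusted p = 0.0685), and without replicate 2 or 3 of the moMs or replicate 1 or 2 of the tnsIMs (0.0594 to 0.111). The second was lost with all libraries kept under upper-quartile scaling (0.0682), with no filter on low counts (0.08), with at least 10 counts in every library (0.0579) and with each genotype fitted alone (0.0969). It was also lost without any 1 of the tnsIM replicates or replicate 2 or 3 of the matIMs (0.0888 to 0.351). Serpinb6a overlaps Nqo2, Ripk1 and the noncoding 1110046J04Rik on the other strand, and the library kit does not keep strand.

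Both low members of the cluster were also highest in matIMs. Serpinb9b, a paralog of Serpinb9 with 86.4% identity over 1119 aligned coding bases, was 3.15, 4.27 and 3.35 CPM in WT matIMs and at most 1.08 CPM in the 6 WT libraries of the other populations. Ezr-KOm values were 2.44, 1.41 and 3.65 CPM in matIMs and at most 1.22 CPM elsewhere. The rise from moMs was 4.92-fold in WT (log2 2.30 ± 0.63, adjusted p = 0.0106) and 4.31-fold in Ezr-KOm cells (log2 2.11 ± 0.63, adjusted p = 0.02). Without replicate 3 of the WT moMs the first had an adjusted p of 0.0541, and without replicate 2 or 3 of the moMs or replicate 3 of the matIMs the second had 0.073, 0.0587 and 0.0877. With each genotype fitted alone the second had 0.0626. Serpinb1b, a paralog of the neutrophil elastase inhibitor Serpinb1a, was 0.754, 1.196 and 1.04 CPM in WT matIMs and 0.249 to 0.569 CPM in the other WT libraries. In Ezr-KOm matIMs it was 1.86, 0.826 and 0.671 CPM, and in the other Ezr-KOm libraries 0.154 to 0.485 CPM. It rose 3.92-fold from moMs to matIMs in Ezr-KOm cells (log2 1.97 ± 0.53, adjusted p = 0.0102). In WT cells that step had an adjusted p of 0.0639, and the difference from tnsIMs was 3.27-fold (log2 1.71 ± 0.53, adjusted p = 0.0303). The Ezr-KOm call was lost without replicate 2 of the moMs (adjusted p = 0.0593) or replicate 1 of the matIMs (0.103). The WT difference from tnsIMs was lost without any 1 of the tnsIM replicates or replicate 2 or 3 of the matIMs (0.0536 to 0.112).

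Markers of mature dendritic cells moved with this group. The summed level of the 7 marker genes was 49.7 to 107 CPM in moMs, 454 to 794 CPM in tnsIMs and 5837 to 8586 CPM in matIMs. The 6 conventional dendritic cell markers summed to 682 to 1478 CPM in matIMs, of which Cd209a alone was 439 to 1193 CPM. Of these 6 genes, 5 were called higher in matIMs than in moMs of WT mice. The other direction was seen for Xcr1, at 3.08 to 5.77 CPM in matIMs and 4.76 to 10.4 CPM in moMs. The 6 B and plasma cell markers moved in the same order, with sums of 9.28 to 13.7 CPM in moMs, 62.5 to 127 CPM in tnsIMs and 344 to 607 CPM in matIMs. Csf1r, a monocyte and macrophage gene, was 1334 to 1627 CPM in the same matIM libraries and 2200 to 2852 CPM in moMs. The part of dendritic cells, B cells or plasma cells in the matIM levels of Serpinb9, Serpinb6b, Serpinb6a, Serpinb9b and Serpinb1b was not tested.

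**Figure D2:**
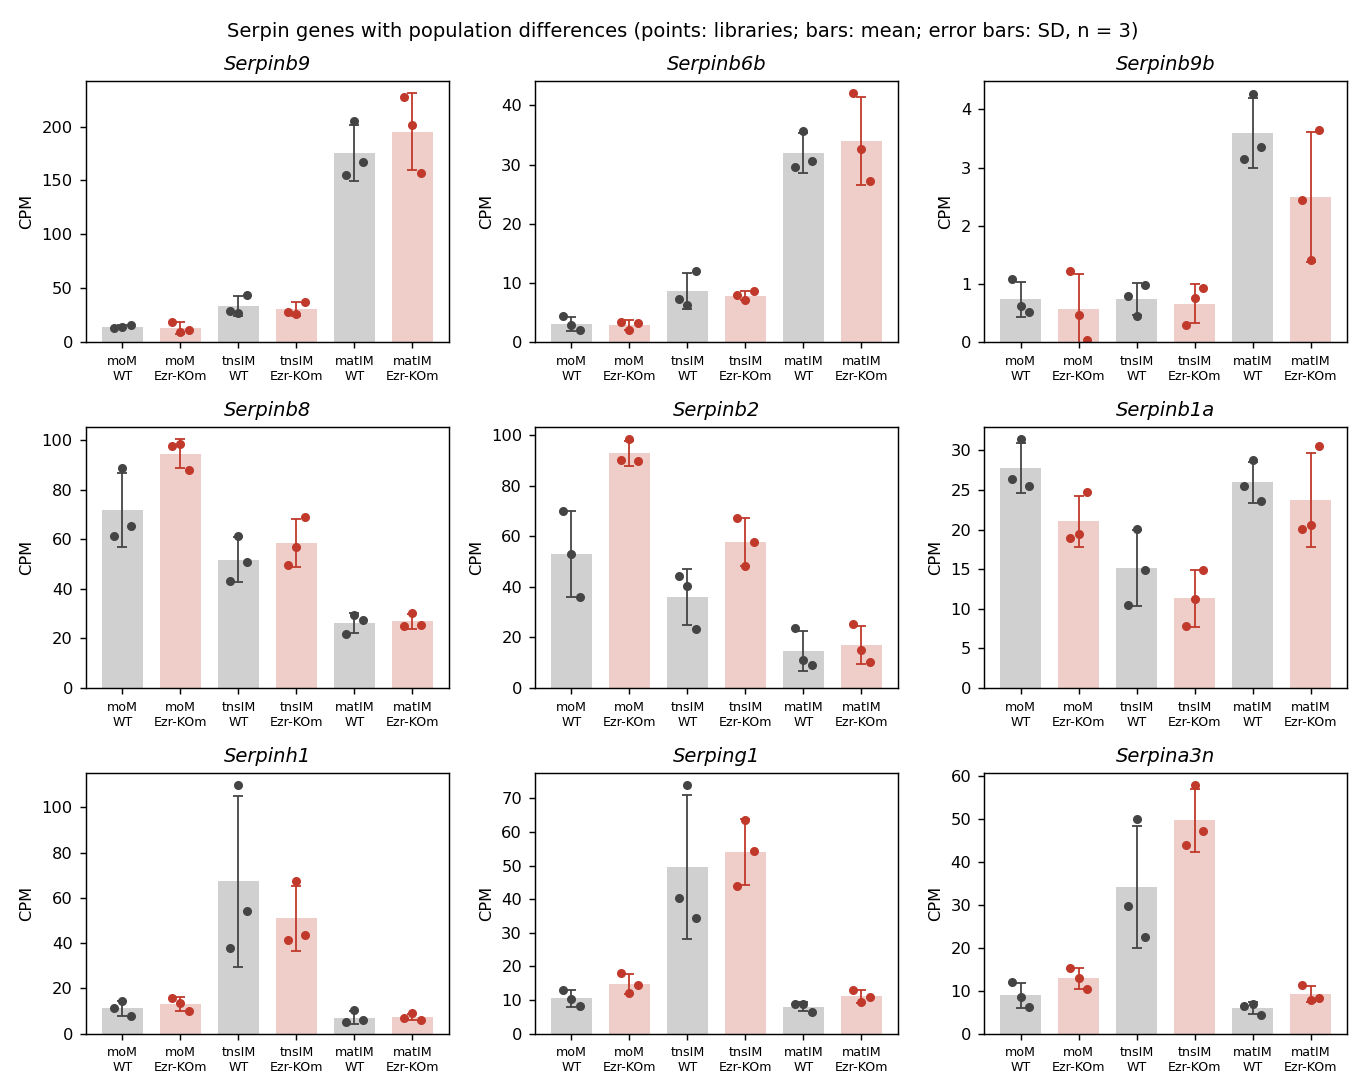
The panels plot CPM (linear axis from 0) of 9 Serpin genes in the 6 groups; points are libraries, bars are means and error bars are SDs (n = 3), grey for WT and red for Ezr-KOm. Serpinb9, Serpinb6b and Serpinb9b are highest in matIMs, Serpinb8 and Serpinb2 step down from moMs to matIMs, Serpinb1a is lowest in tnsIMs, and Serpinh1, Serping1 and Serpina3n are highest in tnsIMs.

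On chromosome 1, by contrast, a pair of clade B genes fell from moMs to matIMs. Serpinb8, an inhibitor of furin-type proteases, was 61.3, 88.8 and 65.4 CPM in WT moMs, 43.3, 61.3 and 50.8 CPM in tnsIMs and 21.8, 29.7 and 27.5 CPM in matIMs. The Ezr-KOm libraries gave 97.6, 98.4 and 87.9 CPM, then 49.8, 56.7 and 69.1 CPM, then 24.95, 30.3 and 25.5 CPM. It was 2.73-fold lower in matIMs than in moMs of WT mice (log2 −1.45 ± 0.18, adjusted p = 6.91e-06) and 3.51-fold lower in Ezr-KOm mice (log2 −1.81 ± 0.18, adjusted p = 4.63e-07), with no overlap. The first step, moMs to tnsIMs, passed the test in Ezr-KOm cells (log2 −0.69 ± 0.17, adjusted p = 0.0105) and missed it in WT cells (log2 −0.47, adjusted p = 0.0606, or 0.0112 with replicate number as a block). The difference between these steps was not past the threshold either (unadjusted p = 0.387, adjusted p = 1).

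Serpinb2 encodes plasminogen activator inhibitor 2, which is strongly induced in activated macrophages. It was 70.1, 53.1 and 36.0 CPM in WT moMs, 44.1, 40.5 and 23.4 CPM in WT tnsIMs and 23.8, 10.9 and 9.24 CPM in WT matIMs. In Ezr-KOm cells it was 90.4, 98.4 and 89.7 CPM in moMs, 67.3, 48.1 and 57.7 CPM in tnsIMs and 25.2, 15.1 and 10.4 CPM in matIMs. The fall from moMs to matIMs was 3.62-fold in WT (log2 −1.86 ± 0.35, adjusted p = 0.00065) and 5.48-fold in Ezr-KOm cells (log2 −2.46 ± 0.36, adjusted p = 4.75e-05), without overlap. From tnsIMs to matIMs it fell 2.46-fold in WT cells (adjusted p = 0.0125), where the lowest tnsIM library lay just under the highest matIM library. That call was lost without replicate 1 of the tnsIMs (adjusted p = 0.0598) or replicates 2 or 3 of the matIMs (0.0695 and 0.0689). From moMs to tnsIMs of Ezr-KOm mice the log2 fold change was −0.69, with an adjusted p of 0.205, or 0.0191 with replicate number as a block. The gene spans of Serpinb2 and the polymorphic pseudogene Serpinb10 overlap by 6452 bases on 1 strand. Only reads in exons of both could not be assigned, and their number was not tested. Of 1872 stretches of 100 bases in the main Serpinb2 transcript, 0 occurred in another Serpin gene.

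Serpinb1a, which inhibits neutrophil elastase, cathepsin G and proteinase 3, had its lowest levels in tnsIMs. In WT cells it was 26.4, 31.4 and 25.5 CPM in moMs, 10.4, 20.1 and 14.9 CPM in tnsIMs and 25.5, 28.8 and 23.6 CPM in matIMs. For Ezr-KOm mice it was 19.0, 19.4 and 24.8 CPM, then 7.81, 11.2 and 14.9 CPM, then 20.1, 20.6 and 30.5 CPM. The tnsIM libraries lay below all others of their genotype. It was 1.84-fold lower in tnsIMs than moMs of WT mice (log2 −0.88 ± 0.24, adjusted p = 0.0146) and 1.86-fold lower in Ezr-KOm mice (log2 −0.90 ± 0.25, adjusted p = 0.018). Both calls leaned on single libraries. The WT value had an adjusted p of 0.055 without replicate 2 of the moMs and 0.0657 without replicate 1 of the tnsIMs. The Ezr-KOm value had 0.089 without replicate 3 of the moMs and 0.0802 and 0.0606 without replicates 1 or 2 of the tnsIMs. From tnsIMs to matIMs it rose 2.10-fold in Ezr-KOm cells (log2 1.07 ± 0.25, adjusted p = 0.004) and 1.72-fold in WT cells (adjusted p = 0.03), a call lost without replicate 1 or 3 of the tnsIMs or replicate 1 or 2 of the matIMs (0.0628 to 0.158).

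Serpinh1, Serping1, Serpina3n, Serpina3m and Serpine2, whose products are secreted or stay in the secretory pathway, were highest in tnsIMs, while the secreted Serpini1 and Serpinf1 were not. Serpinh1 encodes HSP47, the endoplasmic reticulum chaperone of procollagen. It was 11.3, 14.4 and 7.87 CPM in WT moMs, 38.0, 110 and 54.1 CPM in tnsIMs and 5.01, 10.47 and 5.93 CPM in matIMs. Ezr-KOm libraries had 16.0, 13.5 and 10.1 CPM, then 41.6, 67.6 and 43.8 CPM, then 7.06, 9.05 and 6.25 CPM. Each tnsIM library lay above every moM and matIM library. The rise from moMs to tnsIMs was 6.0-fold in WT (log2 2.58 ± 0.36, adjusted p = 6.05e-05) and 3.88-fold in Ezr-KOm cells (log2 1.96 ± 0.35, adjusted p = 0.000957). It then fell 9.42-fold to matIMs in WT cells (adjusted p = 5.04e-06). With replicate number as a block, Serpinh1 was also lower in matIMs than in moMs (log2 −0.69, adjusted p = 0.0198 in WT and log2 −0.83, adjusted p = 0.00583 in Ezr-KOm cells), and without it was not called (adjusted p = 0.209 and 0.108).

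Serping1, the C1 inhibitor that restrains complement and the contact system, was likewise highest in tnsIMs. In WT cells it was 13.2, 10.3 and 8.11 CPM in moMs, 40.3, 73.9 and 34.3 CPM in tnsIMs and 8.87, 8.80 and 6.41 CPM in matIMs. In Ezr-KOm mice it was 18.01, 12.1 and 14.4 CPM, then 44.1, 63.6 and 54.3 CPM, then 13.02, 9.32 and 10.98 CPM. It rose 4.71-fold from moMs to tnsIMs in WT (log2 2.24 ± 0.27, adjusted p = 1.53e-05) and 3.65-fold in Ezr-KOm cells (log2 1.87 ± 0.27, adjusted p = 0.000115), and no tnsIM library overlapped another population.

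Serpina3n, an inhibitor of granzyme B, elastase and cathepsin G that is induced in inflammation, was 12.1, 8.58 and 6.34 CPM in WT moMs. It was 29.7, 50.03 and 22.6 CPM in WT tnsIMs and 6.47, 6.92 and 4.32 CPM in WT matIMs. In Ezr-KOm cells it was 15.4, 13.0 and 10.3 CPM in moMs, 44.0, 57.9 and 47.3 CPM in tnsIMs and 11.3, 7.95 and 8.39 CPM in matIMs. The step from moMs to tnsIMs was 3.80-fold in WT (log2 1.93 ± 0.29, adjusted p = 0.000105) and 3.86-fold in Ezr-KOm cells (log2 1.95 ± 0.28, adjusted p = 0.00014). With replicate number as a block it was also lower in matIMs than in moMs of WT mice (log2 −0.60 ± 0.21, adjusted p = 0.0411), where the fit without the block gave an adjusted p of 0.146. Its neighbour Serpina3m stayed below 5 CPM. Serpina3m was 0.968, 0.414 and 1.02 CPM in WT moMs, 2.25, 2.09 and 1.37 CPM in tnsIMs and 0.798, 0.427 and 0.149 CPM in matIMs. The Ezr-KOm libraries gave 1.48, 1.47 and 1.15 CPM, then 4.03, 4.87 and 4.32 CPM, then 1.47, 0.826 and 1.01 CPM. It was 4.18-fold lower in matIMs than in tnsIMs of WT mice (log2 −2.06 ± 0.47, adjusted p = 0.00357) and 4.0-fold lower in Ezr-KOm mice (log2 −2.00 ± 0.43, adjusted p = 0.00228). It was 3.23-fold higher in tnsIMs than in moMs of Ezr-KOm mice (adjusted p = 0.00988, and 0.0546 without replicate 3 of the moMs). The same step in WT cells had a log2 fold change of 1.25 and an adjusted p of 0.0527, which was 0.0399 with replicate number as a block.

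Serpine2, or protease nexin 1, a cell-surface inhibitor of thrombin, urokinase and plasmin, was 4.33, 2.78 and 3.47 CPM in WT moMs, 10.2, 24.4 and 12.1 CPM in tnsIMs and 2.66, 3.12 and 1.86 CPM in matIMs. Its Ezr-KOm levels were 5.96, 6.71 and 4.01 CPM, then 10.6, 17.3 and 9.88 CPM, then 4.16, 5.85 and 3.48 CPM. Replicate 2 of the tnsIMs was the highest in both genotypes, as for Serpinh1, Serping1 and Serpina3n. Serpine2 rose 4.42-fold from moMs to tnsIMs in WT cells (log2 2.14 ± 0.35, adjusted p = 0.000218). In Ezr-KOm cells it rose 2.27-fold (log2 1.19 ± 0.33, adjusted p = 0.0202), with adjusted p of 0.135 without replicate 2 of the tnsIMs and 0.105 without replicate 3 of the moMs.

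Most markers of nonmyeloid lung cells moved with the tnsIM group. The summed level of 7 epithelial markers was 1479 to 3974 CPM in tnsIMs, 18.9 to 122 CPM in moMs and 164 to 365 CPM in matIMs. For the 6 endothelial markers the sums were 221 to 443, 91.9 to 129 and 72.8 to 97.2 CPM, and for the 7 fibroblast markers they were 80.8 to 149, 22.3 to 53.2 and 13.5 to 30.4 CPM. Among the defining genes, Sftpc reached 572 to 1876 CPM in tnsIMs, Col1a1 14.2 to 34.9 CPM and Msln at most 0.582 CPM. In WT cells, 6 of 7 epithelial and 5 of 7 fibroblast markers were called higher in tnsIMs than in moMs, and 0 lower. Other listed genes ran differently. Epcam was 6.72 to 10.2 CPM in tnsIMs and 9.77 to 14.7 CPM in matIMs. Lum was 0.0831 to 0.339 CPM in tnsIMs and 0.373 to 0.74 CPM in moMs. The tnsIM gate requires CD45 and CD11b. The part of nonmyeloid cells or of their free RNA in the tnsIM levels of Serpinh1, Serping1, Serpine2, Serpina3n and Serpina3m was not tested.

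Serpina3f and Serpina3g, which lie next to each other on chromosome 12 and encode inhibitors inducible by interferon in leukocytes, varied more between replicate numbers than between genotypes. Serpina3g was 31.0, 8.41 and 39.3 CPM in WT moMs, 49.6, 29.9 and 66.1 CPM in tnsIMs and 70.9, 37.4 and 69.2 CPM in matIMs. For Ezr-KOm mice it was 39.0, 9.95 and 24.7 CPM, then 58.2, 29.3 and 47.5 CPM, then 75.5, 35.8 and 65.6 CPM. Serpina3f was 22.9, 7.04 and 37.7 CPM in WT moMs, 25.8, 19.2 and 63.4 CPM in tnsIMs and 25.6, 10.1 and 35.9 CPM in matIMs. In Ezr-KOm cells it was 29.7, 9.06 and 21.8 CPM, then 33.4, 13.7 and 37.6 CPM, then 27.8, 8.19 and 21.4 CPM. Replicate 2 was the lowest library of its group in 6 of 6 groups for both genes. For all tested genes, 6.5% had the same replicate number lowest in 6 of 6 groups, and no other tested Serpin gene did.

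Without a term for the replicate number, neither gene was called between populations. For Serpina3g from moMs to matIMs the log2 fold change was 1.17 in WT (adjusted p = 0.0963) and 1.27 in Ezr-KOm cells (adjusted p = 0.0754). With replicate number as a block within genotype, Serpina3g rose from moMs to matIMs by 1.34 ± 0.22 (adjusted p = 0.000154) and 1.37 ± 0.22 (adjusted p = 0.000116) on the log2 scale, and from moMs to tnsIMs by 1.03 ± 0.22 in WT (adjusted p = 0.00195) and 1.00 ± 0.22 in Ezr-KOm cells (adjusted p = 0.00305). In the same fit Serpina3f was highest in tnsIMs: it was 0.78 ± 0.19 above moMs in WT cells (adjusted p = 0.00641) and 0.52 ± 0.19 above them in Ezr-KOm cells, which was not called (adjusted p = 0.063), and matIMs were below tnsIMs by 0.60 in WT (log2 −0.60 ± 0.19, adjusted p = 0.0324) and 0.61 in Ezr-KOm cells (log2 −0.61 ± 0.19, adjusted p = 0.027).

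**Figure D3:**
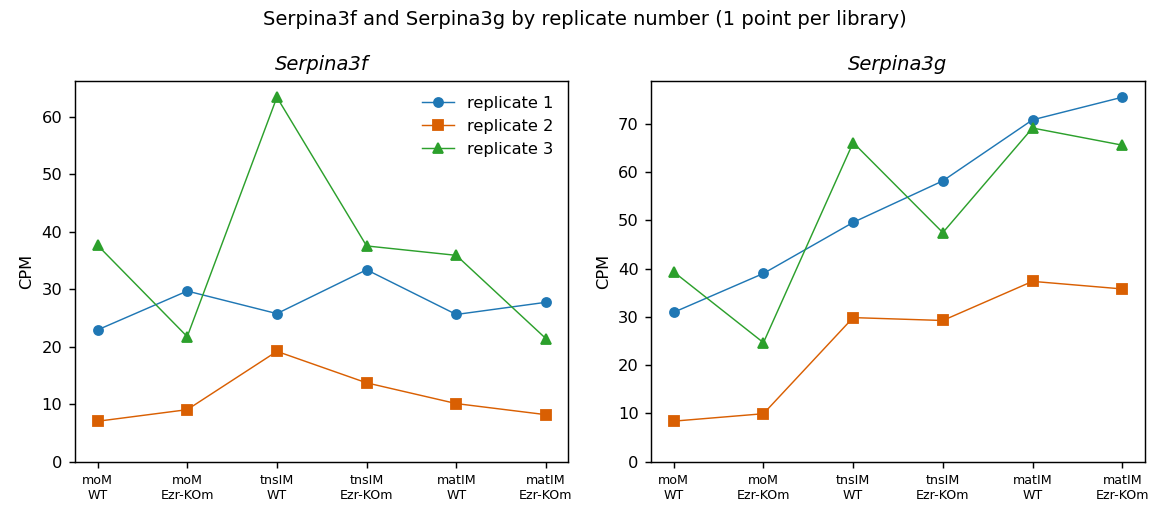
The lines join libraries of 1 replicate number across the 6 groups for Serpina3f and Serpina3g, in CPM on a linear axis from 0, with 1 point per library. Replicate 2 lies lowest in all 6 groups in both panels, at 7.04 to 19.2 CPM for Serpina3f and 8.41 to 37.4 CPM for Serpina3g.

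The remaining members were low or flat. Serpini1, neuroserpin, an inhibitor of tissue plasminogen activator best known from neurons, was 2.22, 1.53 and 2.32 CPM in WT moMs, 0.584, 0.571 and 0.862 CPM in WT tnsIMs and 3.55, 2.31 and 2.09 CPM in WT matIMs. In Ezr-KOm mice it was 1.48, 1.66 and 1.59 CPM in moMs, 2.04, 1.06 and 2.97 CPM in tnsIMs and 3.05, 3.75 and 3.82 CPM in matIMs. In WT cells it was 2.96-fold lower in tnsIMs than in moMs (log2 −1.57 ± 0.38, adjusted p = 0.00593) and 3.87-fold higher in matIMs than in tnsIMs (log2 1.95 ± 0.38, adjusted p = 0.000945). In Ezr-KOm cells the step from moMs to matIMs was 2.24-fold (log2 1.16 ± 0.35, adjusted p = 0.0198), a call that 5 of the 6 single omissions moved to adjusted p of 0.0512 to 0.0593 (replicates 1, 2 and 3 of the moMs and 2 and 3 of the matIMs). Serpinf1 was 0.953 to 1.14 CPM in WT moMs, 1.59 to 1.96 CPM in tnsIMs and 2.04 to 3.29 CPM in matIMs, and 0.964 to 1.35, 0.98 to 2.08 and 2.12 to 5.37 CPM in Ezr-KOm cells. It rose 2.69-fold from moMs to matIMs in WT (log2 1.43 ± 0.38, adjusted p = 0.00851) and 2.90-fold in Ezr-KOm cells (adjusted p = 0.00473, and 0.0573 without replicate 3 of the matIMs).

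Serpina3c, Serpina3i, Serpinb12 and Serpind1, the last encoding heparin cofactor II, stayed between 0 and 2.28 CPM, and no test passed the threshold for them. With replicate number as a block, Serpina3c was lower in matIMs than in tnsIMs of Ezr-KOm mice (log2 −2.13 ± 0.74, adjusted p = 0.0453). It was then 1.21, 1.58 and 1.10 CPM in tnsIMs and 0.502, 0.482 and 0 CPM in matIMs.

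No Serpin gene differed between Ezr-KOm and WT cells at an adjusted p under 0.05 in edgeR, in any of the 3 populations. Among all tested genes, 0.171% were called in moMs, 0.164% in tnsIMs and 0.152% in matIMs. The deleted gene Ezr was called in tnsIMs (log2 −1.62 ± 0.24, adjusted p = 0.00365) and matIMs (log2 −2.29 ± 0.25, adjusted p = 7.73e-05). In moMs it narrowly missed the threshold (log2 −1.20 ± 0.24, adjusted p = 0.0549). At an unadjusted p under 0.05, 2, 2 and 3 of the 22 members differed in moMs, tnsIMs and matIMs, and all of these were higher in Ezr-KOm cells, as were 2.2%, 1.81% and 2.11% of all genes. DESeq2 called 0, 1 and 0 members, the one being Serpini1 in tnsIMs. By the study's own rule, which asks for an unadjusted p below 0.05 and a log2 fold change beyond 0.75 in size, 1 member was higher in Ezr-KOm moMs, 2 were in tnsIMs, 2 were in matIMs and 0 were lower. By that rule 1.55% of all genes were higher and 0.961% lower in moMs, 1.08% and 0.759% in tnsIMs, and 1.41% and 0.987% in matIMs. The members had a median log2 fold change of 0.20 in moMs, of −0.05 in tnsIMs and of 0.20 in matIMs, where the median over all genes was within 0.01 of 0.

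The genes that met the study's rule were Serpinb2, Serpini1, Serpina3m and Serpine2. In moMs, Serpinb2 was 92.8 ± 4.86 CPM in Ezr-KOm and 53.1 ± 17.1 CPM in WT libraries (SD, n = 3), with no overlap, a log2 fold change of 0.81 ± 0.34 (unadjusted p = 0.0285, adjusted p = 1). In tnsIMs its libraries did not overlap either, with a log2 fold change of 0.68 ± 0.34 and an unadjusted p of 0.0607. In matIMs the groups overlapped. Serpini1 in tnsIMs was 2.02 ± 0.955 CPM in Ezr-KOm and 0.672 ± 0.165 CPM in WT libraries, a log2 fold change of 1.55 ± 0.38 (unadjusted p = 0.000635, adjusted p = 0.242). These values rest on few reads, 9 to 22 per library in WT and 49 to 70 in Ezr-KOm tnsIMs. Without replicate 2 of the Ezr-KOm tnsIMs, the lowest of its group at 1.06 CPM, edgeR called Serpini1 at an adjusted p under 0.05.

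Serpina3m was higher in Ezr-KOm libraries of all 3 populations, without overlap: 1.36 ± 0.189 against 0.802 ± 0.337 CPM in moMs, 4.41 ± 0.425 against 1.91 ± 0.469 CPM in tnsIMs and 1.10 ± 0.332 against 0.458 ± 0.326 CPM in matIMs. The log2 fold changes were 0.77 ± 0.45 (unadjusted p = 0.101), 1.21 ± 0.42 (unadjusted p = 0.00895, adjusted p = 1) and 1.28 ± 0.47 (unadjusted p = 0.0135, adjusted p = 1). Serpina3n, 85.2% identical to it over 1254 aligned coding bases, had log2 fold changes of 0.53 ± 0.28, 0.55 ± 0.27 and 0.65 ± 0.29, and only the last had an unadjusted p under 0.05 (0.0371). Serpine2 in matIMs was 4.50 ± 1.22 CPM in Ezr-KOm and 2.55 ± 0.635 CPM in WT libraries (log2 0.82 ± 0.35, unadjusted p = 0.0281, adjusted p = 1). In tnsIMs Serpine2 went the other way, at 12.6 ± 4.1 CPM in Ezr-KOm and 15.6 ± 7.7 CPM in WT libraries. Fibroblast marker sums ran higher in Ezr-KOm libraries, at 42.0 to 53.2 CPM against 22.3 to 37.3 CPM in WT moMs. In tnsIMs the sums were 88.6 to 149 and 80.8 to 102 CPM. In matIMs they were 26.2 to 30.4 and 13.5 to 26.5 CPM, and the genotypes overlapped in both these populations. The part of fibroblasts in the values of Serpina3m, Serpina3n and Serpine2 was not tested.

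The members met the rule unevenly when single libraries were left out. The moM count was 0 without replicate 2 or 3 of the WT moMs or replicate 2 of the Ezr-KOm moMs, 2 without replicate 3 of the Ezr-KOm moMs and 3 without replicate 1 of the WT moMs. Serpinb2 no longer met it in moMs without replicate 2 or 3 of the WT or replicate 1 or 2 of the Ezr-KOm libraries. The matIM count was 0 without replicate 3 of the WT matIMs and 1 without replicate 1 or 2 of the Ezr-KOm matIMs. In matIMs Serpina3m no longer met the rule without replicate 3 of the WT or replicate 1 of the Ezr-KOm libraries, and Serpine2 without replicate 3 of the WT or replicate 2 of the Ezr-KOm libraries. For Serpinb9 the 95% intervals of the genotype difference on the log2 scale ran from −0.62 to 0.42 in moMs, −0.64 to 0.37 in tnsIMs and −0.35 to 0.65 in matIMs. For Serpina3g they were wider, from −1.13 to 0.94, −1.14 to 0.91 and −1.02 to 1.02.

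**Figure D4:**
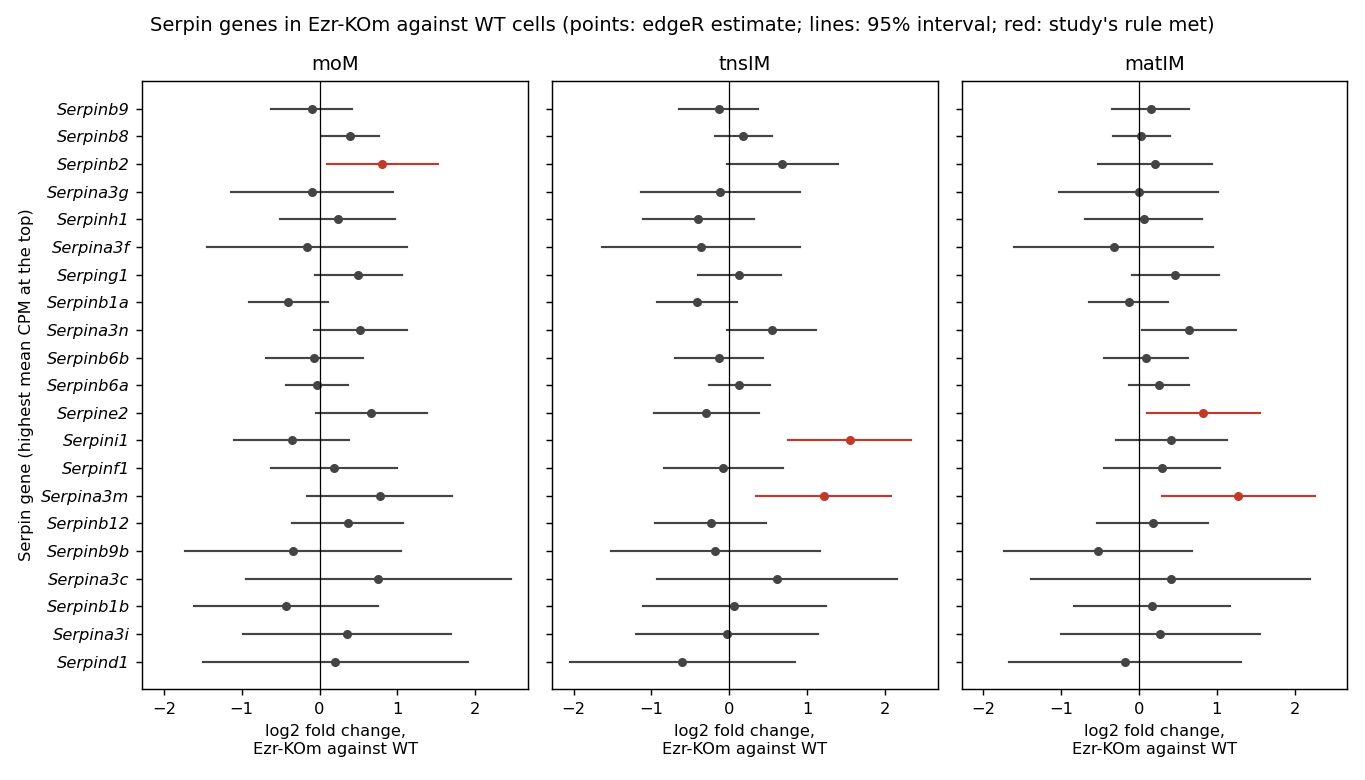
The panels plot the log2 fold change of Ezr-KOm against WT cells for 21 of the tested Serpin genes in moMs, tnsIMs and matIMs; points are edgeR estimates, lines are 95% intervals, and red marks genes that met the study's rule. The red points are Serpinb2 in moMs, Serpini1 and Serpina3m in tnsIMs and Serpina3m and Serpine2 in matIMs, and all lie to the right of 0.

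Whether a step between populations differed by genotype was tested as an interaction of genotype with population. No member, and 0% of all genes, passed an adjusted p under 0.05 in the comparison of tnsIMs with moMs (0%), matIMs with moMs (0%) or matIMs with tnsIMs (0%) by edgeR, and DESeq2 called 0 members as well. At an unadjusted p under 0.05 there were 1, 0 and 2 members, beside 1.47%, 1.7% and 1.16% of all genes. For Serpini1 the step from moMs to tnsIMs was higher in Ezr-KOm than in WT cells by 1.91 ± 0.52 on the log2 scale (unadjusted p = 0.00161, adjusted p = 1), and the step from tnsIMs to matIMs differed by −1.13 ± 0.50 (unadjusted p = 0.0381). For Serpine2 the step from tnsIMs to matIMs differed by 1.12 ± 0.47 (unadjusted p = 0.0294, adjusted p = 1).

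Partners of the family were counted from fixed lists. Of 34 listed proteases that serpins inhibit, 23 were tested. In WT cells 5 were higher and 3 lower in tnsIMs than in moMs, 4 higher and 8 lower in matIMs than in moMs, and 2 higher and 7 lower in matIMs than in tnsIMs; in Ezr-KOm cells the counts were 3 and 3, 4 and 8, and 1 and 7. Over all genes, the shares higher and lower in WT cells were 13% and 8.61%, 13.4% and 11.4%, and 8.32% and 10.2%, in the order given. In Ezr-KOm cells they were 9.23% and 5.04%, 12.5% and 10.7%, and 8.37% and 9.85%. None of the 23 proteases differed between genotypes at an adjusted p under 0.05 in edgeR. By the study's rule 2 were higher in Ezr-KOm matIMs, as were 1.41% of all genes. Prtn3, the neutrophil and monocyte protease 3 that Serpinb1a inhibits, was 10.8 CPM on average in WT moMs, 1.86 in tnsIMs and 0.719 CPM in matIMs, a log2 fold change of −3.91 ± 0.41 from moMs to matIMs (adjusted p = 1.09e-06). F10, coagulation factor X, averaged 360, 308 and 140 CPM, and was 1.36 lower in matIMs than in moMs (log2 −1.36 ± 0.19, adjusted p = 3.74e-05). St14, the membrane protease matriptase, averaged 2.14, 10.3 and 4.78 CPM, and F9, coagulation factor IX, 1.01, 2.13 and 4.28 CPM. St14 rose from moMs to tnsIMs by 2.27 ± 0.23 (adjusted p = 3.17e-06) and F9 from moMs to matIMs by 2.08 ± 0.32 (adjusted p = 7.96e-05) on the log2 scale.

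All 16 listed cofactors, receptors and partners were tested, and the shares over all genes are those given with the proteases. In WT cells 5 were higher and 1 lower in tnsIMs than in moMs, 3 higher and 5 lower in matIMs than in moMs, and 2 higher and 9 lower in matIMs than in tnsIMs; in Ezr-KOm cells the counts were 3 and 1, 2 and 8, and 0 and 10. Lrp1, the endocytic receptor that clears serpin and protease complexes, averaged 609 CPM in WT moMs, then 401 and 229 CPM in tnsIMs and matIMs, and fell by 1.41 on the log2 scale from moMs to matIMs (log2 −1.41 ± 0.19, adjusted p = 1.96e-05). Thbd, thrombomodulin, averaged 99.7, 78.1 and 20.2 CPM, with a log2 fold change of −2.30 ± 0.31 over the same step (adjusted p = 2.19e-05). Vtn, vitronectin, an adhesive plasma protein, was at most 2.76 CPM and was higher in tnsIMs than in moMs of WT mice (log2 2.27 ± 0.65, adjusted p = 0.0173). Lrp2, megalin, was at 0 reads in every WT moM library and 33 to 83 reads in WT tnsIMs, which is 2.04 to 3.25 CPM.

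The 19 collagens and collagen-modifying enzymes listed as partners of Serpinh1 were all tested, and the shares over all genes are again those given with the proteases. In WT cells 12 were higher and 1 lower in tnsIMs than in moMs, 0 higher and 4 lower in matIMs than in moMs, and 0 higher and 14 lower in matIMs than in tnsIMs; in Ezr-KOm cells the counts were 11 and 1, 0 and 7, and 0 and 15. Their median log2 fold change from moMs to tnsIMs was 1.82 in WT, beside 0.01 over all genes. Col4a1 and Col4a2, the main basement membrane collagen chains, averaged 28.4 and 12.8 CPM in WT moMs, 102 and 47.2 CPM in tnsIMs and 12.6 and 9.61 CPM in matIMs. P4ha2, a prolyl hydroxylase of collagen, averaged 1.38, 7.46 and 1.56 CPM. From moMs to tnsIMs of WT mice the log2 fold changes were 1.84 ± 0.25 for Col4a1 (adjusted p = 4.08e-05), 1.89 ± 0.23 for Col4a2 (adjusted p = 1.72e-05) and 2.42 ± 0.29 for P4ha2 (adjusted p = 1.53e-05). Plod3, a lysyl hydroxylase, went the other way, with means of 282, 173 and 117 CPM in the same order (log2 −0.71 ± 0.13 from moMs to tnsIMs, adjusted p = 0.000858). The fibroblast, endothelial and epithelial marker sums given above rose in the same tnsIM libraries, and their part in the collagen values was not tested. Between genotypes, 0 of the 16 cofactors and 0 of the 19 collagen partners passed an adjusted p under 0.05 in edgeR. By the study's rule 1 cofactor, Lrp2, with at most 7 reads in a library, and 2 collagen partners were higher in Ezr-KOm moMs. In matIMs 1 collagen partner was higher and 1 lower, the latter P4ha2 (log2 −0.75 ± 0.30, unadjusted p = 0.022 in edgeR). Over all genes that rule gave 1.55% higher in moMs, and 1.41% higher and 0.987% lower in matIMs.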

How the data were processed

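RNA of FACS-sorted lung macrophages was amplified with SMART-Seq v4, which keeps no strand, and sequenced as read pairs. Per the labels and the study's methods, the authors aligned reads with STAR 2.7.9a to GRCm39 and deposited raw counts per gene (Gencode M29). From these counts, edgeR 4.0.16 (R 4.3.3) was fitted to the 6 groups of 18 libraries after filterByExpr with a smallest count of 10 and TMM scaling. Population, genotype and interaction contrasts were tested by quasi-likelihood, with p-values adjusted by Benjamini-Hochberg over 15811 genes. The scripts were tested on simulated data. CPM values use TMM-scaled totals. DESeq2 1.42.0, upper-quartile scaling, other filters, separate fits, a replicate block and single omissions were alternatives. Members and gene lists were chosen with earlier results of these data known.

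Values per library, or ranges for some low members, are given for members called in at least 1 of 9 comparisons of populations or genotypes. The same holds for those meeting the study's rule, the 10 with the highest mean CPM and the Serpina3 family. List genes are the 4 with the smallest p per list. Samples with the same replicate number deviated together: all 9 correlations between genotypes (0.12 to 0.486) and all 18 between populations (0.124 to 0.573) were over 0.1, at most 0.0698 for different numbers. The study gives 3 mice per genotype as the source of the RNA, and the replicate numbers come from the labels, which do not say that a number marks 1 mouse. Gene positions are the files'; Gencode M39 supplied lengths and sequences on the same build, and its gene bounds differed for 21 of the 25 members. The loop hinge was found as the best match to the serpin hinge in the last 100 codons. 1 member of the family is counted in the totals but not reported here.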

Additional observations from a re-analysis of the deposited data

How the results depend on the processing

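Counts of Serpin genes that differed between genotypes were the most dependent on single choices. In tnsIMs the adjusted count was 0, but 1 by DESeq2 and 0 to 1 on leaving out single libraries (Serpini1). By the study's rule, single omissions gave 0 to 3 in moMs (1 with all libraries), 2 to 3 in tnsIMs and 0 to 3 in matIMs (2 with all libraries), and asking for at least 10 counts in every library gave 0 in tnsIMs and 1 in matIMs, since low members were then not tested. Between tnsIMs and moMs of Ezr-KOm mice, the count of 10 ran from 6, without replicate 3 of the moMs, to 10, and the other population counts stayed within 1.5 times. With replicate number as a block, the counts of called members went from 8 to 12, 7 to 10 and 13 to 14 in WT cells and from 10 to 12, 9 to 11 and 13 to 15 in Ezr-KOm cells (tnsIMs with moMs, matIMs with moMs, matIMs with tnsIMs); the genotype and interaction counts were as without it, and the members whose call it changed are given above. Calls over all 15811 tested genes rose with the block too. In the same order they went from 3411 to 4747, 3926 to 5002 and 2926 to 3773 in WT cells. In Ezr-KOm cells they went from 2257 to 3403, 3679 to 4783 and 2881 to 3861. No called value of a member changed direction under the alternatives run. Under upper-quartile scaling the median log2 fold change of all genes reached 0.108 (tnsIMs with moMs, WT), beside 0.01 under TMM. Members under about 1 CPM rest on few reads, and 3 libraries a group leave wide intervals.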

Other observations

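Rows with a Serpin symbol and another biotype were left out of the family. Of the 3 such rows, Serpinb10, annotated as a polymorphic pseudogene beside Serpinb2, was 17.5, 26.1 and 27.4 CPM in WT moMs, 2.00, 3.87 and 6.03 CPM in WT tnsIMs and 2.93, 4.14 and 5.93 CPM in WT matIMs. In Ezr-KOm cells it was 22.3, 24.3 and 30.5 CPM in moMs, 4.16, 5.69 and 7.33 CPM in tnsIMs and 2.51, 3.99 and 7.38 CPM in matIMs, so moM libraries lay above all others in both genotypes. In WT cells its log2 fold change was −2.57 from moMs to tnsIMs (adjusted p = 0.00014) and −2.45 from moMs to matIMs. Serpina3d-ps was at most 1.13 CPM and Serpina3h at most 0.54 CPM.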
